A study of Mus musculus with 16 samples.

Results

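The genes described here mark endothelial cells, the layer of cells that lines every blood vessel. They are 34 genes, named by symbol, and all probe sets whose platform annotation gave exactly 1 of these symbols were taken. On the array 59 of 34945 probe sets with 1 gene name belonged to them, and these covered 34 of 18193 named genes. All 34 had a probe set above the filter on low signal (a mean signal over the 16 arrays above 381.5), and 11042 genes in all did. They were read in whole aorta of 16 mice, with 1 Affymetrix array per mouse and 4 mice in each of 4 groups. All mice, the controls included, lacked apolipoprotein E (APOE-/-), which makes them prone to atherosclerosis, and all ate a high fat diet for 10 weeks from 8 weeks of age, up to 18 weeks of age. The diabetic RBX group had diabetes induced with streptozotocin (STZ), which destroys pancreatic beta cells, at 6 weeks of age, and its diet also held RBX. RBX is ruboxistaurin (LY333531), which blocks the beta form of protein kinase C. The diabetic group had STZ diabetes and no RBX, the non-diabetic RBX group had RBX and no diabetes, and the non-diabetic group had neither. No mouse with intact Apoe or on another diet was analysed here, and the dose of RBX and the sex of the mice were not given in the sources used here.

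Endothelial cells hold together through adherens and tight junctions, sense vascular growth factors and angiopoietins through receptor kinases, and release nitric oxide, which relaxes the smooth muscle beneath. Their identity is kept by a set of transcription factors of the ETS, SOX and related families. High glucose raises diacylglycerol in vascular cells, which activates protein kinase C beta, and RBX was developed as an inhibitor of this kinase in the vessels of diabetic patients. In the aorta the endothelium is a single layer beside a thick muscle wall, and further endothelium lines the small vessels of the adventitia and of the fat around it. In such a bulk sample, more endothelial cells and more RNA per endothelial cell cannot be told apart.

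The signals are MAS5 intensities on a linear scale, and the deposited arrays share a trimmed mean of 1500.01, so a gene's signal is read against the average of its array. The log2 differences below are from 1 limma model over all 16 arrays and 11042 genes, with p-values adjusted by Benjamini-Hochberg over all genes of a comparison. A gene is said to have risen or fallen where its adjusted p was under 0.05. The 4 arrays of non-diabetic RBX mice differed from all others in a control. The spiked hybridisation control cre, averaged over its 2 probe sets, had a signal of 178887 to 193038 in diabetic RBX, 133751 to 200254 in diabetic, 237689.7 to 433951 in non-diabetic RBX and 103972 to 177948 in non-diabetic mice. For Actb the array carries control probe sets at both ends of the transcript, and their 3' over 5' log2 ratio, which goes up where RNA is degraded or labelling falls short, ran over 1.47 to 1.89 in diabetic RBX, 1.16 to 1.52 in diabetic, 1.67 to 2.51 in non-diabetic RBX and 0.85 to 1.32 in non-diabetic mice. The cre signal and the Actb ratio were both higher on all 4 non-diabetic RBX arrays than on any non-diabetic array. The same ratio for Gapdh ran over 0.31 to 0.47 in diabetic RBX and -0.02 to 0.31 in diabetic mice. It was 0.12 to 0.52 in non-diabetic RBX and 0.003 to 0.25 in non-diabetic mice, which overlapped. Of the smooth muscle genes 8 of 8 listed (Myh11, Acta2, Tagln and others) were above the filter, as were 11042 of 18193 named genes. Passing this filter does not check the tissue label, since 8 of 8 listed macrophage markers passed it too.

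The stretch of 250 bases before the start of a gene, taken from RefSeq on GRCm38.p6, is shown for 4 of the genes to which the results return. Cldn5 rose with diabetes, Egfl7 had the smallest p and Emcn one of the largest rises with RBX in non-diabetic mice, and Rgcc was the only one of the 34 to fall in any comparison of 2 groups. Capitals mark each match to CNGGAAG on either strand, a form of the site that ETS transcription factors such as Erg bind. The Cldn5 window lies at chr16:18776597-18776846 on the plus strand, the Egfl7 window (the first of 3 listed starts) at chr2:26580833-26581082 on the plus strand, the Emcn window at chr3:137340828-137341077 on the plus strand and the Rgcc window at chr14:79301636-79301885 on the minus strand.
Cldn5: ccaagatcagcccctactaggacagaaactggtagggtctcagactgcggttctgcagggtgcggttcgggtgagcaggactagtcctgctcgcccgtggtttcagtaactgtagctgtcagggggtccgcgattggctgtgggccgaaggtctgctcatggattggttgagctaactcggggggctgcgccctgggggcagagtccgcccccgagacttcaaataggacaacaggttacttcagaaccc
Egfl7: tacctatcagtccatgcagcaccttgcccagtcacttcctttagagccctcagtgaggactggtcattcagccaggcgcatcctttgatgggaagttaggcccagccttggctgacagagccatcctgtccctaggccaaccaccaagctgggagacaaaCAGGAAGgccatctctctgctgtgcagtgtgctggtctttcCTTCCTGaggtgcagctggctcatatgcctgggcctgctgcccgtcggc
Emcn: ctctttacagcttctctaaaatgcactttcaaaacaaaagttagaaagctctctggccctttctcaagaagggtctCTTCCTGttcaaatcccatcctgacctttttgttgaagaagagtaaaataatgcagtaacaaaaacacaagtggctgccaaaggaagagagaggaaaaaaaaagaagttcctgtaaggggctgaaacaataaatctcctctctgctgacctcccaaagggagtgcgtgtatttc
Rgcc: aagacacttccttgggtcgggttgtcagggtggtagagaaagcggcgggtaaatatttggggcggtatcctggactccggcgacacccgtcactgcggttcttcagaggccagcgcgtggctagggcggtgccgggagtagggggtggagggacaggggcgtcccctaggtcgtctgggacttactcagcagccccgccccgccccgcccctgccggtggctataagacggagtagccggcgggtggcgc
The Egfl7 window holds 2 such matches, the Emcn window 1, and those of Cldn5 and Rgcc none. RefSeq promoter entries were matched for 17 of the 34 genes, and 7 of these 17 windows (41.2%) held the motif, as did 26.6% of all 32851 promoter windows of the same length. The motif ACAATG, one form of the SOX site, was in 1 of the 17 windows (5.88%) and in 10.7% of all windows, and AGATAA, one form of the GATA site, was in 1 of 17 and in 9.99%. On either strand these are matches of letters and nothing was measured at them.

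By group mean of the log2 signal, 32 of the 34 genes were lowest in the non-diabetic group, and 25 were highest in the non-diabetic RBX group, 6 in the diabetic and 3 in the diabetic RBX group. The mean log2 signal of the 34 genes was 11.96 to 12.10 in diabetic RBX, 11.83 to 12.32 in diabetic, 12.21 to 12.56 in non-diabetic RBX and 11.35 to 11.63 in non-diabetic mice. On this mean the non-diabetic mice did not overlap with any other group. Non-diabetic RBX mouse 4 had the highest signal of its group in 22 of the 34 genes, diabetic mouse 3 in 17 and non-diabetic mouse 4 in 17. The lowest signal of the group fell to diabetic mouse 2 in 18 genes and to non-diabetic mouse 2 in 15.

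**Figure D1:**
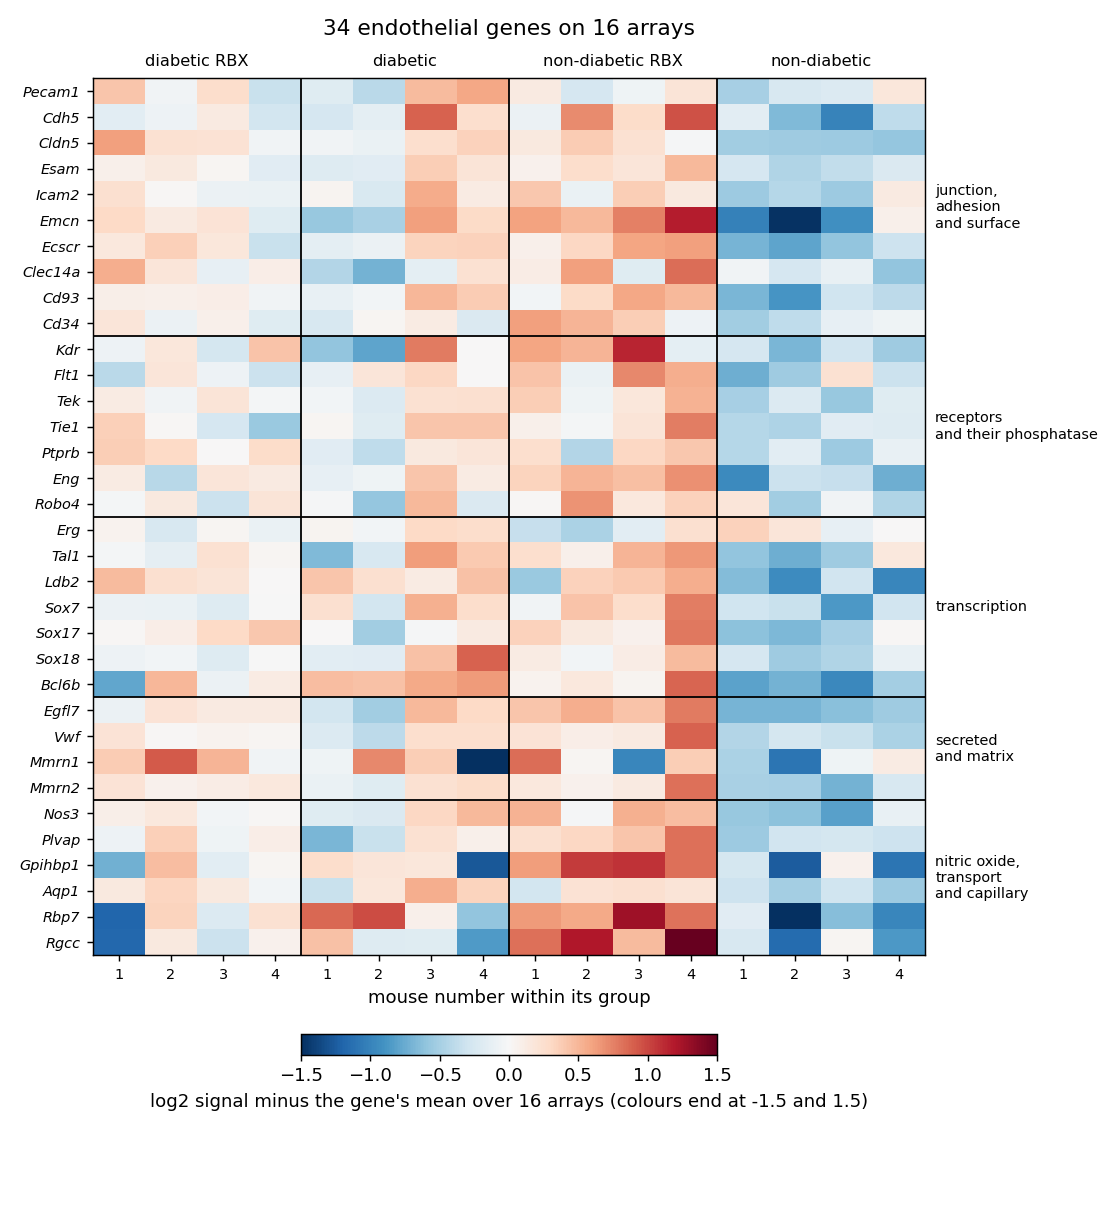
Log2 signal of each of the 34 genes (rows, by role) on each of the 16 arrays (columns, by group and mouse number), minus the gene's mean over all arrays, with red above and blue below that mean and colours ending at -1.5 and 1.5. The non-diabetic columns are blue in most rows, non-diabetic RBX mouse 4 is red in most rows, and Erg has its lowest group mean in the non-diabetic RBX columns.

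Over all 11042 genes, 0.326% rose with diabetes and 16.5% with RBX in non-diabetic mice, and the counts in each class of endothelial genes stand beside these shares. Among the 10 genes of cell junctions, adhesion and the cell surface, 2 rose with diabetes and 9 rose with RBX in non-diabetic mice. Cldn5, a claudin that seals endothelial tight junctions, measured 6927, 5293, 5253 and 4353 in diabetic RBX mice, 4378, 4229.5, 5372 and 5764 in diabetic mice, 4992, 5887, 5317 and 4457 in non-diabetic RBX mice and 3166, 3131, 3103 and 3032 in non-diabetic mice. In Cldn5 all 4 diabetic and all 4 non-diabetic RBX mice lay above every non-diabetic mouse. Cldn5 rose by 0.66 on the log2 scale with diabetes (SE 0.13, adjusted p = 0.0306) and by 0.73 with RBX in non-diabetic mice (SE 0.13, adjusted p = 0.000567). The non-diabetic values of Cldn5 were its narrowest, within 3032 to 3166. Cd93, a C-type lectin receptor of endothelium and myeloid cells that binds the matrix protein multimerin made by Mmrn2, measured 27957, 27687, 28129 and 25307 in diabetic RBX mice, 24268, 25449.5, 37233 and 34163 in diabetic mice, 25549.6, 32059, 39379 and 36693 in non-diabetic RBX mice and 16324, 14273, 21323 and 20064 in non-diabetic mice. In Cd93 all 4 diabetic and all 4 non-diabetic RBX mice lay above every non-diabetic mouse. Cd93 rose by 0.74 on the log2 scale with diabetes (SE 0.16, adjusted p = 0.0337) and by 0.89 with RBX in non-diabetic mice (SE 0.16, adjusted p = 0.000369). Ecscr, a surface protein of endothelial cells that acts in their migration, measured 6204, 7115, 6242 and 4424 in diabetic RBX mice, 5029, 5254, 7013 and 7102 in diabetic mice, 5889, 6901, 8360.0 and 8555 in non-diabetic RBX mice and 3445, 3206, 3695 and 4489.8 in non-diabetic mice. In Ecscr all 4 diabetic and all 4 non-diabetic RBX mice lay above every non-diabetic mouse. Ecscr rose by 0.997 with RBX in non-diabetic mice (SE 0.16, adjusted p = 0.00021), and its log2 difference with diabetes was 0.71 (SE 0.16, adjusted p = 0.0525). Emcn, the sialomucin endomucin, best known from capillary and venous endothelium, measured 4974, 4431, 4637 and 3563 in diabetic RBX mice, 2709, 2887, 6150.4 and 4919.6 in diabetic mice, 6128, 5651, 6829 and 9133 in non-diabetic RBX mice and 2004, 1442, 2127 and 4257 in non-diabetic mice. In Emcn all 4 non-diabetic RBX mice lay above every non-diabetic mouse, and the diabetic mice overlapped with the non-diabetic ones. Emcn rose by 1.59 with RBX in non-diabetic mice (SE 0.28, adjusted p = 0.000423), and its log2 difference with diabetes was 0.79 (SE 0.28, adjusted p = 0.178). Cdh5, the cadherin of endothelial adherens junctions, measured 1611, 1708, 1964 and 1485 in diabetic RBX mice, 1505, 1625, 3313 and 2143 in diabetic mice, 1684, 2939.8, 2165 and 3477 in non-diabetic RBX mice and 1602, 1132, 894 and 1376 in non-diabetic mice. In Cdh5 all 4 non-diabetic RBX mice lay above every non-diabetic mouse, and the diabetic mice overlapped with the non-diabetic ones. Cdh5 rose by 1.02 with RBX in non-diabetic mice (SE 0.25, adjusted p = 0.00486), and its log2 difference with diabetes was 0.74 (SE 0.25, adjusted p = 0.152).

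The remaining genes of this class had smaller rises with RBX in non-diabetic mice, or none. Esam, an adhesion molecule of endothelial junctions, measured 7644, 8008, 7418 and 6413 in diabetic RBX mice, 6336, 6414, 9355 and 8303 in diabetic mice, 7575, 8697, 8233 and 10145 in non-diabetic RBX mice and 6103, 5287, 5601 and 6242 in non-diabetic mice. In Esam all 4 diabetic and all 4 non-diabetic RBX mice lay above every non-diabetic mouse. Esam rose by 0.57 with RBX in non-diabetic mice (SE 0.13, adjusted p = 0.00248), and its log2 difference with diabetes was 0.37 (SE 0.13, adjusted p = 0.161). Icam2, a ligand for leukocyte integrins that resting endothelium carries, measured 4713, 4063, 3761 and 3718 in diabetic RBX mice, 4104, 3404, 5892 and 4344 in diabetic mice, 5284, 3744, 5175 and 4443 in non-diabetic RBX mice and 2752, 2963, 2734 and 4408 in non-diabetic mice. In Icam2 both the diabetic and the non-diabetic RBX mice overlapped with the non-diabetic mice. Icam2 rose by 0.55 with RBX in non-diabetic mice (SE 0.17, adjusted p = 0.0204), and its log2 difference with diabetes was 0.47 (SE 0.17, adjusted p = 0.196). Clec14a, a C-type lectin that also binds multimerin, measured 4862, 3777, 3046 and 3554 in diabetic RBX mice, 2448, 2031, 2996 and 3903 in diabetic mice, 3584, 5085, 2937 and 5951 in non-diabetic RBX mice and 3196, 2804, 3068 and 2210.2 in non-diabetic mice. In Clec14a both the diabetic and the non-diabetic RBX mice overlapped with the non-diabetic mice. Clec14a rose by 0.60 with RBX in non-diabetic mice (SE 0.22, adjusted p = 0.0453), and its log2 difference with diabetes was -0.02 (SE 0.22, adjusted p = 0.984). Cd34, a sialomucin of endothelium that blood progenitors and adventitial fibroblasts carry as well, measured 15744, 13089.5, 14712 and 12255 in diabetic RBX mice, 11798, 14188, 15150.4 and 11937 in diabetic mice, 21255, 19736, 17913 and 13136 in non-diabetic RBX mice and 9715, 10655, 12732 and 13273 in non-diabetic mice. In Cd34 both the diabetic and the non-diabetic RBX mice overlapped with the non-diabetic mice. Cd34 rose by 0.62 with RBX in non-diabetic mice (SE 0.14, adjusted p = 0.00304), and its log2 difference with diabetes was 0.20 (SE 0.14, adjusted p = 0.553). Pecam1, an adhesion molecule of endothelium, platelets and leukocytes, did not pass in any comparison. Its signal averaged 9907 ± 2235 in diabetic RBX, 10449 ± 3389.8 in diabetic, 9350.2 ± 1300.5 in non-diabetic RBX and 8186 ± 1586 in non-diabetic mice (SD, n = 4 each). The difference of Pecam1 with RBX in non-diabetic mice was 0.20 (95% interval -0.23 to 0.63, adjusted p = 0.484) and with diabetes 0.31 (95% interval -0.12 to 0.74, adjusted p = 0.512).

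**Figure D2:**
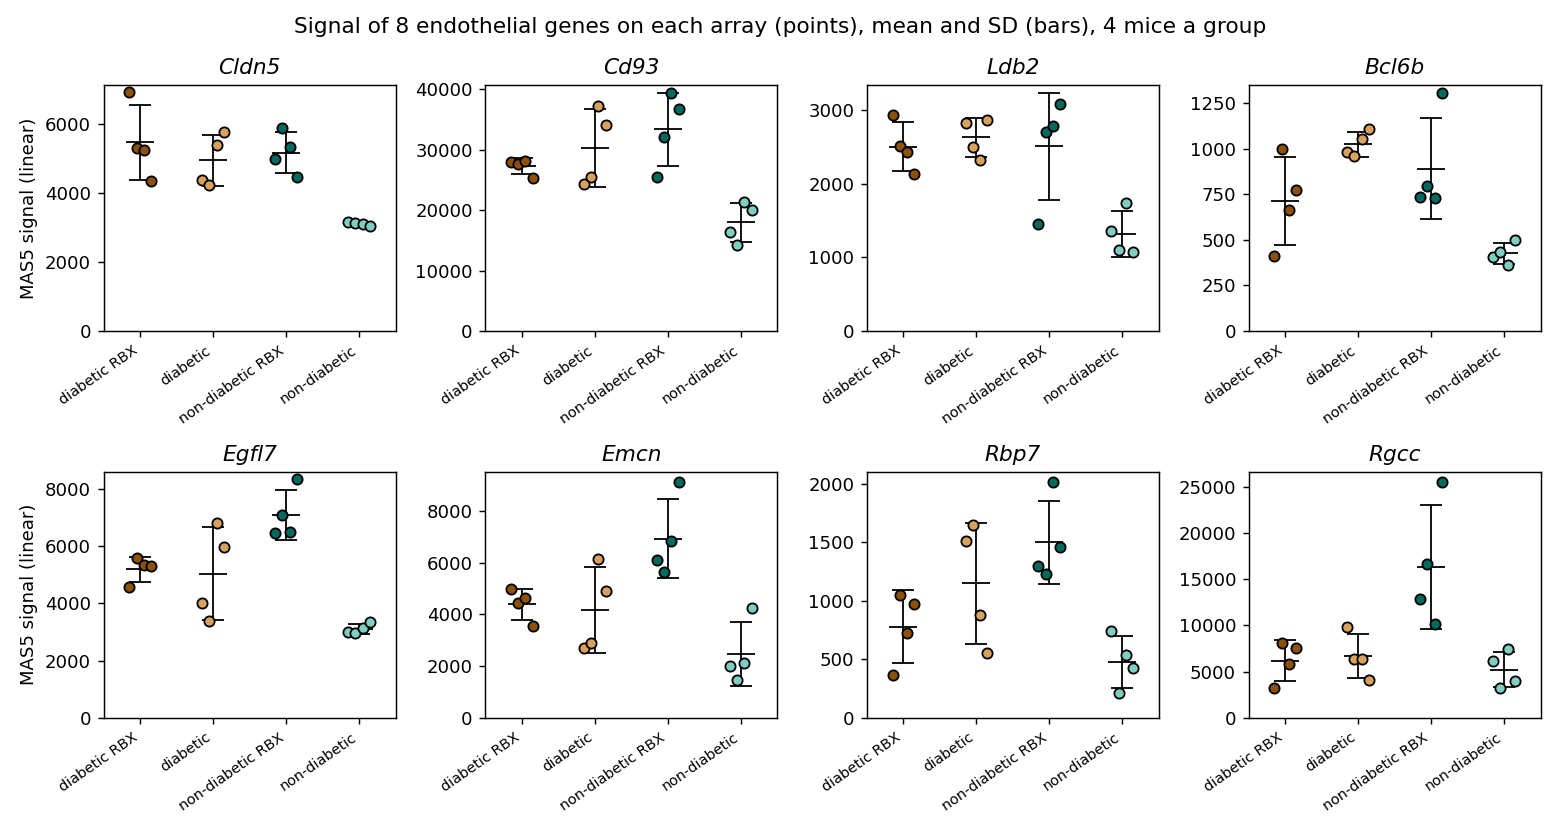
MAS5 signal (linear, from 0) of 8 endothelial genes on each array, by group, with the group mean and SD over 4 mice as bars. In Cldn5, Cd93 and Bcl6b every diabetic and non-diabetic RBX point lies above the non-diabetic points, and in Rgcc every non-diabetic RBX point lies above all points of the other groups.

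Of the 7 receptor genes and their phosphatase, none rose with diabetes and 5 rose with RBX in non-diabetic mice, where 0.326% and 16.5% of all genes did. Eng, endoglin, a co-receptor for transforming growth factor beta ligands, measured 7439.8, 5112, 7771 and 7521 in diabetic RBX mice, 6265, 6538, 9087 and 7424 in diabetic mice, 8615, 9697, 9307 and 10976 in non-diabetic RBX mice and 3526, 5463, 5370.2 and 4115 in non-diabetic mice. In Eng all 4 diabetic and all 4 non-diabetic RBX mice lay above every non-diabetic mouse. Eng rose by 1.08 with RBX in non-diabetic mice (SE 0.16, adjusted p = 8.77e-05), and its log2 difference with diabetes was 0.67 (SE 0.16, adjusted p = 0.058). Tek, the angiopoietin receptor kinase, measured 5288, 4676, 5520.0 and 4741 in diabetic RBX mice, 4713, 4194, 5675 and 5715 in diabetic mice, 6248, 4633, 5449.7 and 6929.9 in non-diabetic RBX mice and 3425, 4196, 3254 and 4255 in non-diabetic mice. In Tek all 4 non-diabetic RBX mice lay above every non-diabetic mouse, and the diabetic mice overlapped with the non-diabetic ones. Tek rose by 0.61 with RBX in non-diabetic mice (SE 0.14, adjusted p = 0.00247), and its log2 difference with diabetes was 0.42 (SE 0.14, adjusted p = 0.139). Tie1, its related partner kinase, measured 3393, 2679.8, 2218 and 1800.0 in diabetic RBX mice, 2701, 2331, 3529 and 3544 in diabetic mice, 2795, 2602, 3041 and 4530.3 in non-diabetic RBX mice and 1974, 1922, 2355 and 2323 in non-diabetic mice. In Tie1 all 4 non-diabetic RBX mice lay above every non-diabetic mouse, and the diabetic mice overlapped with the non-diabetic ones. Tie1 rose by 0.57 with RBX in non-diabetic mice (SE 0.20, adjusted p = 0.035), and its log2 difference with diabetes was 0.48 (SE 0.20, adjusted p = 0.247). Kdr, the main signalling receptor for vascular endothelial growth factor, measured 926, 1096, 811 and 1310.2 in diabetic RBX mice, 645, 560.0, 1669 and 977 in diabetic mice, 1461, 1384, 2156 and 882 in non-diabetic RBX mice and 817, 602, 795 and 674 in non-diabetic mice. In Kdr all 4 non-diabetic RBX mice lay above every non-diabetic mouse, and the diabetic mice overlapped with the non-diabetic ones. Kdr rose by 0.97 with RBX in non-diabetic mice (SE 0.30, adjusted p = 0.0206), and its log2 difference with diabetes was 0.29 (SE 0.30, adjusted p = 0.708). Flt1, a receptor that binds the same factor and acts largely as a decoy, measured 2049, 3074, 2575 and 2176 in diabetic RBX mice, 2493, 3084, 3356 and 2733 in diabetic mice, 3662, 2535, 4475 and 3953 in non-diabetic RBX mice and 1640.1, 1881, 3189.8 and 2171 in non-diabetic mice. In Flt1 both the diabetic and the non-diabetic RBX mice overlapped with the non-diabetic mice. Flt1 rose by 0.74 with RBX in non-diabetic mice (SE 0.20, adjusted p = 0.00932), and its log2 difference with diabetes was 0.43 (SE 0.20, adjusted p = 0.31). The remaining pair did not pass in any comparison. Ptprb, the endothelial phosphatase that acts on the angiopoietin receptor, averaged 15713 ± 1622 in diabetic RBX, 12904 ± 2328 in diabetic, 14892 ± 3495 in non-diabetic RBX and 10783 ± 1544 in non-diabetic mice (SD, n = 4 each), with a difference of 0.44 for RBX in non-diabetic mice (adjusted p = 0.0516). Robo4, an endothelial receptor of the roundabout family, averaged 689 ± 107 in diabetic RBX, 671 ± 213 in diabetic, 853 ± 173 in non-diabetic RBX and 602 ± 141 in non-diabetic mice (SD, n = 4 each), with a difference of 0.51 (adjusted p = 0.123).

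Of the 7 transcriptional regulators 2 rose with diabetes and 6 with RBX in non-diabetic mice, where 0.326% and 16.5% of all genes did. Bcl6b, a transcriptional repressor found in endothelium, measured 413, 999, 666 and 775 in diabetic RBX mice, 980.0, 958, 1053 and 1108 in diabetic mice, 735, 794, 729.7 and 1303 in non-diabetic RBX mice and 407, 433, 364 and 498 in non-diabetic mice. In Bcl6b all 4 diabetic and all 4 non-diabetic RBX mice lay above every non-diabetic mouse. Bcl6b rose by 1.27 on the log2 scale with diabetes (SE 0.25, adjusted p = 0.0264) and by 1.03 with RBX in non-diabetic mice (SE 0.25, adjusted p = 0.00505). Ldb2, an adaptor that binds LIM-domain proteins, measured 2934, 2506, 2421 and 2131 in diabetic RBX mice, 2825, 2500.1, 2315 and 2863 in diabetic mice, 1445, 2699, 2786 and 3081 in non-diabetic RBX mice and 1354, 1098, 1741 and 1072 in non-diabetic mice. In Ldb2 all 4 diabetic mice lay above every non-diabetic mouse, and the non-diabetic RBX mice overlapped with the non-diabetic ones. Ldb2 rose by 1.02 on the log2 scale with diabetes (SE 0.20, adjusted p = 0.0277) and by 0.90 with RBX in non-diabetic mice (SE 0.20, adjusted p = 0.00289). Sox7, a member of the SOX subgroup that endothelium uses, measured 1605, 1596, 1493 and 1703 in diabetic RBX mice, 2012, 1409, 2482 and 2059 in diabetic mice, 1641, 2302, 2059 and 2919.9 in non-diabetic RBX mice and 1385, 1350.3, 944 and 1396 in non-diabetic mice. In Sox7 all 4 diabetic and all 4 non-diabetic RBX mice lay above every non-diabetic mouse. Sox7 rose by 0.80 with RBX in non-diabetic mice (SE 0.19, adjusted p = 0.00351), and its log2 difference with diabetes was 0.64 (SE 0.19, adjusted p = 0.104). Sox17, a member of the same subgroup, known for its place in arterial endothelium, measured 3844, 4041, 4649 and 5008 in diabetic RBX mice, 3809, 2641, 3740.1 and 4151 in diabetic mice, 4812, 4200.4, 3951 and 6524 in non-diabetic RBX mice and 2472, 2382, 2678 and 3816 in non-diabetic mice. In Sox17 all 4 non-diabetic RBX mice lay above every non-diabetic mouse, and the diabetic mice overlapped with the non-diabetic ones. Sox17 rose by 0.78 with RBX in non-diabetic mice (SE 0.18, adjusted p = 0.00301), and its log2 difference with diabetes was 0.34 (SE 0.18, adjusted p = 0.368). Sox18, the other SOX factor of this subgroup, measured 2587, 2647, 2383 and 2721 in diabetic RBX mice, 2457, 2429.6, 3716 and 5037 in diabetic mice, 2969, 2659, 2957 and 3797 in non-diabetic RBX mice and 2301, 1894, 1995 and 2532 in non-diabetic mice. In Sox18 all 4 non-diabetic RBX mice lay above every non-diabetic mouse, and the diabetic mice overlapped with the non-diabetic ones. Sox18 rose by 0.50 with RBX in non-diabetic mice (SE 0.19, adjusted p = 0.0489), and its log2 difference with diabetes was 0.59 (SE 0.19, adjusted p = 0.136). Tal1, a factor of blood and endothelial progenitors, measured 1459, 1357, 1745 and 1512 in diabetic RBX mice, 942, 1258, 2294 and 1948 in diabetic mice, 1769, 1561, 2111 and 2339 in non-diabetic RBX mice and 982, 893, 1028 and 1665 in non-diabetic mice. In Tal1 both the diabetic and the non-diabetic RBX mice overlapped with the non-diabetic mice. Tal1 rose by 0.80 with RBX in non-diabetic mice (SE 0.24, adjusted p = 0.0187), and its log2 difference with diabetes was 0.45 (SE 0.24, adjusted p = 0.388).

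Erg, an ETS factor that keeps mature endothelium in its state, did not share the rise of the other regulators. It measured 2819, 2309, 2787 and 2531 in diabetic RBX mice, 2809, 2647, 3353 and 3278 in diabetic mice, 2143, 1966, 2439.6 and 3223 in non-diabetic RBX mice and 3448, 3088, 2507 and 2736 in non-diabetic mice. These groups overlapped. The difference of Erg was -0.29 for RBX in non-diabetic mice (95% interval -0.59 to 0.02, adjusted p = 0.148) and 0.04 for diabetes (95% interval -0.27 to 0.35, adjusted p = 0.932). It was the only one of the 34 genes with a value below 0 for RBX in non-diabetic mice, and with array weights or with arrays centred on their median this value passed the threshold as a fall, as it did without non-diabetic RBX mouse 4.

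Of the 4 secreted and matrix genes none rose with diabetes and 3 rose with RBX in non-diabetic mice, where 0.326% and 16.5% of all genes did. Egfl7, a secreted factor of endothelium whose gene also carries a microRNA in an intron, measured 4559.9, 5575, 5324 and 5299 in diabetic RBX mice, 3996, 3379, 6804 and 5979 in diabetic mice, 6443, 7075, 6507 and 8331 in non-diabetic RBX mice and 2998, 2975, 3137 and 3347 in non-diabetic mice. In Egfl7 all 4 diabetic and all 4 non-diabetic RBX mice lay above every non-diabetic mouse. Egfl7 rose by 1.18 with RBX in non-diabetic mice (SE 0.17, adjusted p = 6.28e-05), and its log2 difference with diabetes was 0.64 (SE 0.17, adjusted p = 0.0727). Mmrn2, the multimerin of endothelial matrix, measured 13695, 12374, 12832 and 13275 in diabetic RBX mice, 11100.3, 10458, 13933 and 14319 in diabetic mice, 13254, 12437, 13079 and 21066 in non-diabetic RBX mice and 8471, 8385, 7238 and 10039 in non-diabetic mice. In Mmrn2 all 4 diabetic and all 4 non-diabetic RBX mice lay above every non-diabetic mouse. Mmrn2 rose by 0.78 with RBX in non-diabetic mice (SE 0.15, adjusted p = 0.00075), and its log2 difference with diabetes was 0.54 (SE 0.15, adjusted p = 0.0819). Vwf, von Willebrand factor, which endothelium and platelets store and release in clotting, measured 26223, 23081, 23531 and 23205 in diabetic RBX mice, 19748, 17334, 27203 and 27018 in diabetic mice, 26157, 24327, 24910.1 and 42134 in non-diabetic RBX mice and 16729, 18969, 18053 and 16425 in non-diabetic mice. In Vwf all 4 non-diabetic RBX mice lay above every non-diabetic mouse, and the diabetic mice overlapped with the non-diabetic ones. Vwf rose by 0.71 with RBX in non-diabetic mice (SE 0.16, adjusted p = 0.00295), and its log2 difference with diabetes was 0.35 (SE 0.16, adjusted p = 0.3). Mmrn1, the multimerin of platelets and endothelium, did not pass in any comparison and varied more than the others, with 1179.9, 1716, 1291 and 874 in diabetic RBX mice, 869, 1495, 1167 and 317 in diabetic mice, 1613, 921, 460.2 and 1169 in non-diabetic RBX mice and 651, 423, 863 and 986 in non-diabetic mice. Its SE was 0.43 on the log2 scale, beside a median of 0.18 over the 34 genes.

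The 6 genes of nitric oxide, transport and capillary function rose without exception with RBX in non-diabetic mice, and in each of them all 4 non-diabetic RBX mice lay above every non-diabetic mouse. None of them rose with diabetes. Of all genes 16.5% rose with RBX in non-diabetic mice and 0.326% with diabetes. Rbp7, a retinol binding protein found in endothelium of fat, measured 364, 1052, 722 and 973 in diabetic RBX mice, 1514, 1647, 875 and 554 in diabetic mice, 1296, 1232, 2012 and 1461 in non-diabetic RBX mice and 741, 209, 535 and 424 in non-diabetic mice. In Rbp7 all 4 non-diabetic RBX mice lay above every non-diabetic mouse, and the diabetic mice overlapped with the non-diabetic ones. Rbp7 rose by 1.77 with RBX in non-diabetic mice (SE 0.40, adjusted p = 0.00296), and its log2 difference with diabetes was 1.28 (SE 0.40, adjusted p = 0.129). Rgcc, a cell cycle regulator, measured 3204, 8046, 5817 and 7590.4 in diabetic RBX mice, 9841, 6352, 6381 and 4030.4 in diabetic mice, 12834, 16649.8, 10122 and 25511 in non-diabetic RBX mice and 6149.9, 3269, 7424 and 3986 in non-diabetic mice. In Rgcc all 4 non-diabetic RBX mice lay above every non-diabetic mouse, and the diabetic mice overlapped with the non-diabetic ones. Rgcc rose by 1.63 with RBX in non-diabetic mice (SE 0.33, adjusted p = 0.00126), and its log2 difference with diabetes was 0.36 (SE 0.33, adjusted p = 0.665). Gpihbp1, which carries lipoprotein lipase to the surface of capillaries, measured 1366, 3098, 2012 and 2291 in diabetic RBX mice, 2696, 2538, 2522 and 931 in diabetic mice, 3473, 4647, 4746 and 3971 in non-diabetic RBX mice and 1863, 945, 2351 and 1048 in non-diabetic mice. In Gpihbp1 all 4 non-diabetic RBX mice lay above every non-diabetic mouse, and the diabetic mice overlapped with the non-diabetic ones. Gpihbp1 rose by 1.53 with RBX in non-diabetic mice (SE 0.33, adjusted p = 0.00201), and its log2 difference with diabetes was 0.47 (SE 0.33, adjusted p = 0.537). Nos3, the endothelial nitric oxide synthase, measured 6600.4, 6939, 6048 and 6330.2 in diabetic RBX mice, 5505, 5345, 7747 and 8750.2 in diabetic mice, 8957, 6177, 8987 and 8569.6 in non-diabetic RBX mice and 4214, 4055, 3534 and 5756 in non-diabetic mice. In Nos3 all 4 non-diabetic RBX mice lay above every non-diabetic mouse, and the diabetic mice overlapped with the non-diabetic ones. Nos3 rose by 0.90 with RBX in non-diabetic mice (SE 0.17, adjusted p = 0.000658), and its log2 difference with diabetes was 0.63 (SE 0.17, adjusted p = 0.0759). Plvap, a protein of the diaphragms of fenestrae and caveolae, measured 7928, 10654, 8007 and 8944 in diabetic RBX mice, 5182, 6622, 9786 and 8807 in diabetic mice, 9855, 10379, 11157 and 14752 in non-diabetic RBX mice and 5734, 6832, 6957 and 6721 in non-diabetic mice. In Plvap all 4 non-diabetic RBX mice lay above every non-diabetic mouse, and the diabetic mice overlapped with the non-diabetic ones. Plvap rose by 0.80 with RBX in non-diabetic mice (SE 0.17, adjusted p = 0.00175), and its log2 difference with diabetes was 0.17 (SE 0.17, adjusted p = 0.686). Aqp1, a water channel of endothelium that mesothelium and red cells carry as well, measured 31067, 35151, 31087 and 27296 in diabetic RBX mice, 22279.6, 31691, 40968 and 35354 in diabetic mice, 23159, 32567, 33063 and 32009.6 in non-diabetic RBX mice and 22630.3, 19795, 22871 and 19319 in non-diabetic mice. In Aqp1 all 4 non-diabetic RBX mice lay above every non-diabetic mouse, and the diabetic mice overlapped with the non-diabetic ones. Aqp1 rose by 0.50 with RBX in non-diabetic mice (SE 0.15, adjusted p = 0.0187), and its log2 difference with diabetes was 0.59 (SE 0.15, adjusted p = 0.0713).

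The comparisons of RBX with no RBX and of diabetes with no diabetes share the non-diabetic mice, so that their values are not independent. For diabetes without RBX, 4 of the 34 genes rose and none fell, namely Bcl6b, Ldb2, Cd93 and Cldn5, where 0.326% of the 11042 genes tested rose and 0.326% fell. At an unadjusted p under 0.05 there were 21 of the 34 above 0, where 8.13% of all genes were. In all, 33 of the 34 genes had a value above 0, with a median of 0.47, beside 52.4% and a median of 0.01 over all genes. In 10 of the 34 all diabetic mice lay above all non-diabetic mice, as in 4.56% of all genes. The exception below 0 was Clec14a. The 4 calls depended on single mice: none was made without non-diabetic mouse 1, 2 or 4 or without diabetic mouse 3 or 4, 2 were made without diabetic mouse 2, 6 without non-diabetic mouse 3 and 9 without diabetic mouse 1. With the cre signal of each array as a covariate none was called, and with the Actb ratio 1. The shares of all genes called in these reduced or adjusted fits are not given here.

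For RBX in non-diabetic mice, 29 of the 34 genes rose and none fell, where 16.5% of all genes tested rose and 15.1% fell. The median was 0.78, a fold of 1.72, beside 0.03 over all genes, and 33 of the 34 were above 0, where 53.2% of all genes were. At an unadjusted p under 0.05 there were 30 above 0, where 22.7% of all genes were. In 23 of the 34 the groups did not overlap and RBX was higher, as in 14.3% of all genes. The largest rises were those of Rbp7, Rgcc, Emcn and Gpihbp1, all above 1.5 on the log2 scale, and the 5 genes that did not pass were Pecam1, Ptprb, Robo4, Erg and Mmrn1. Of the 29 calls 22 were made without any 1 of the 8 mice. The cre signals of these groups did not overlap. With cre as a covariate none of the 34 genes passed, their median was 0.65 and their median SE 0.37, against 0.18 without it. With the Actb ratio as a covariate 2 passed, with a median of 0.70 and a median SE of 0.36. The part of hybridisation, labelling and RNA quality in these rises was not tested beyond these fits, and the shares of all genes called in them are not given here.

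With RBX in diabetic mice none of the 34 genes passed the threshold (limma), where 5 of 11042 genes (0.0453%) did. At an unadjusted p under 0.05 there was 1 of the 34, where 9.18% of all genes were. Their median was -0.03, beside -0.02 over all genes, with 15 of the 34 above 0 where 46.7% of all genes were. The gene of smallest p was Bcl6b, at -0.59 (SE 0.25, adjusted p = 0.485), with 413, 999, 666 and 775 in diabetic RBX mice, against 980.0, 958, 1053 and 1108 in diabetic mice. The 95% interval reached a median of 0.38 on the log2 scale to either side of the value over the 34 genes. For Cldn5 the interval was -0.14 to 0.42, for Nos3 -0.40 to 0.31 and for Egfl7 -0.25 to 0.45. The 34 genes together were less spread among diabetic RBX mice, where the mean log2 signal had an SD of 0.07, than among diabetic mice with 0.22, a difference that was not tested.

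For diabetes under RBX 1 of the 34 genes fell and none rose, where 2.66% of all genes fell and 4.44% rose. The count of 1 is near the share of all genes that fell. Rgcc fell by 1.40 on the log2 scale (SE 0.33, adjusted p = 0.0152), with all 4 diabetic RBX mice below all 4 non-diabetic RBX mice. The median of the 34 was -0.31 and 27 had a value below 0, beside a median of -0.04 over all genes, of which 44.5% lay above 0. At an unadjusted p under 0.05 there were 11 of the 34 below 0, where 12.5% of all genes were. Next by size were Rbp7 at -1.03 (adjusted p = 0.126), Gpihbp1 at -0.99 (adjusted p = 0.0773) and Emcn at -0.64 (adjusted p = 0.175), in each of which the groups did not overlap either. In 6 of the 34 genes all diabetic RBX mice lay below all non-diabetic RBX mice, as in 6.25% of all genes. The call of Rgcc was lost without diabetic RBX mouse 1 (-1.11, adjusted p = 0.0627), without non-diabetic RBX mouse 4 (-1.15, adjusted p = 0.0528) and with either covariate. Markers of other cells moved in this comparison as well. Platelet markers fell in 5 of 5 measured (median -0.91), with sums of 11944 to 18604 in diabetic RBX mice, against 21668 to 39356 in non-diabetic RBX mice. Smooth muscle markers rose in 5 of 8 (median 0.83), with sums of 460667 to 505977 in diabetic RBX mice, against 295228 to 458420.1 in non-diabetic RBX mice. Brown adipocyte markers had a median of -1.41 with none of 7 past the threshold. Their sums were 19927 to 59098 in diabetic RBX mice, against 28355 to 131375 in non-diabetic RBX mice. Of the adventitial fibroblast markers 1 of 8 fell. The other marker lists had no gene past the threshold, with medians of -0.82 for white adipocyte, -0.81 for mesothelial, -0.24 for macrophage, -0.02 for lymphatic, 0.60 for cardiac muscle and 1.08 for erythroid markers. At an unadjusted p under 0.05, 5 of 7 brown and 3 of 5 white adipocyte markers were below 0, where 12.5% of all genes were. The part of all these other cells in the endothelial values was not tested.

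**Figure D3:**
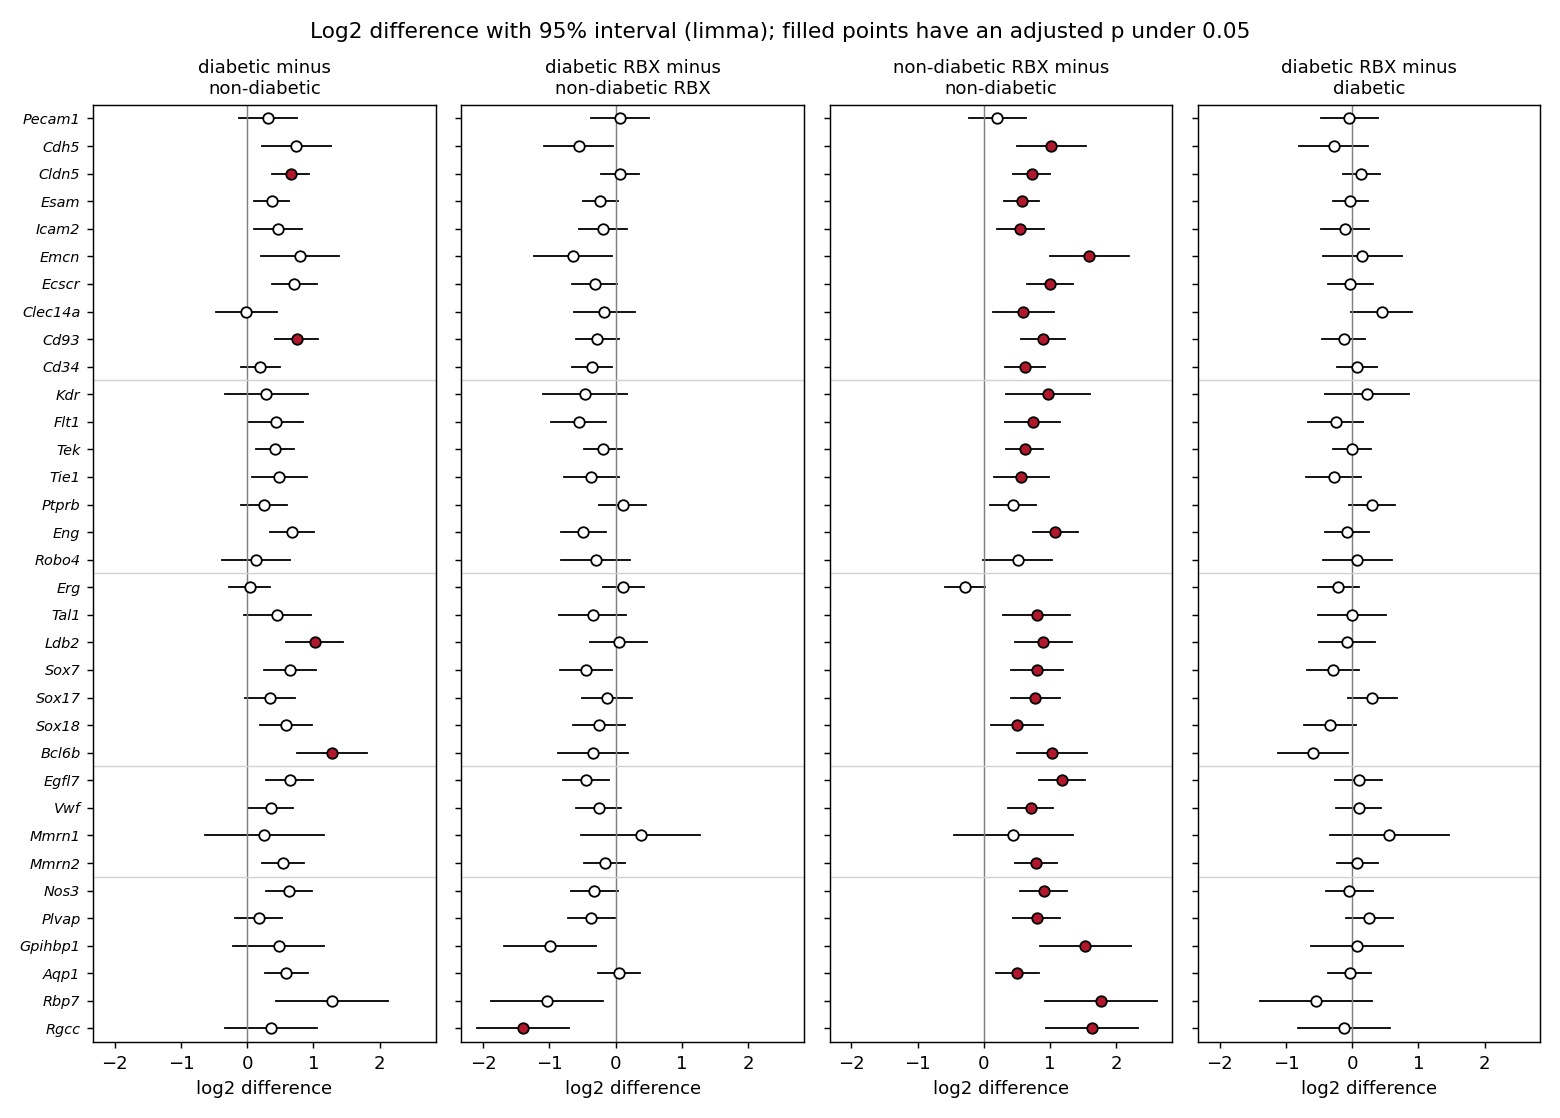
Log2 difference (x axis) and 95% interval of each of the 34 genes (rows, by role) in the 4 comparisons of 2 groups, from limma, with filled points where the adjusted p was under 0.05. Filled points number 4 for diabetic minus non-diabetic, 1 for diabetic RBX minus non-diabetic RBX, 29 for non-diabetic RBX minus non-diabetic and none for diabetic RBX minus diabetic.

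The effect of RBX differed between diabetic and non-diabetic mice in 18 of the 34 genes, by the interaction term of the model (the RBX difference under diabetes less the one without it). All 18 were below 0. Of all genes 5.5% passed below 0 and 6.02% above 0. At an unadjusted p under 0.05 there were 26 of the 34 below 0, where 15.3% of all genes were, and 2 of the 34 had a value above 0, where 45% of all genes did. The smallest adjusted p was that of Eng, at -1.16 (SE 0.23, adjusted p = 0.00339). The largest in size were Rbp7 at -2.31 (SE 0.57, adjusted p = 0.0145), Rgcc at -1.76 (SE 0.47, adjusted p = 0.0216) and Bcl6b at -1.62 (SE 0.36, adjusted p = 0.00769). The others were Cdh5, Esam, Emcn, Ecscr and Cd93 among the surface genes, Flt1 and Tek among the receptors, Ldb2, Sox7 and Sox18 among the regulators, and Egfl7, Mmrn2, Nos3 and Gpihbp1. The median over the 34 was -0.77, beside -0.06 over all genes. The term shares all 16 arrays with the comparisons above and is no independent evidence of them. The count was 9 without non-diabetic mouse 2, 10 without non-diabetic mouse 1, diabetic mouse 3 or diabetic RBX mouse 4, none with the cre covariate and 3 with the Actb ratio. How many of all genes passed in those fits is not given here. The interaction term of smooth muscle markers passed above 0 in 5 of 8 (median 1.14) and that of macrophage markers below 0 in 4 of 8 (median -0.67). It passed below 0 in 1 of 4 measured mesothelial (median -1.57), 1 of 5 platelet (median -0.60), 1 of 5 white adipocyte (median -0.96) and 1 of 8 adventitial fibroblast markers (median -0.19), and above 0 in 1 of 3 cardiac muscle markers (median 1.01). No brown adipocyte (median -1.63), lymphatic (median -0.76) or erythroid marker (median 0.04) passed. The part of these cells in the endothelial terms was not tested.

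A second list of 77 further endothelial genes, none of them among the 34, was measured for 72. Like the 34, they were chosen with earlier results of these data known. With diabetes 3 of the 72 rose and none fell, where 0.326% of all genes rose, the median being 0.41 with 64 of 72 above 0. The risers were Cyyr1 (0.93, adjusted p = 0.012), Shank3 (0.63, adjusted p = 0.032) and Ednrb, a receptor for endothelin (1.17, adjusted p = 0.0409). With RBX in non-diabetic mice 39 of the 72 rose and 8 fell, with a median of 0.57, where 16.5% of all genes rose and 15.1% fell. The counts in the classes that follow stand beside the same shares. Among 29 measured genes of endothelium in general 20 rose and 4 fell, the smallest p being those of Cyyr1 (1.38, adjusted p = 9.05e-06), Palmd (1.01, adjusted p = 7.08e-05) and Shank3 (0.82, adjusted p = 0.000149), and with Calcrl, a receptor for calcitonin-family peptides, among the falls (-0.48, adjusted p = 0.00904). Of 11 arterial and Notch genes 4 rose, among them the Notch ligand Dll4 (1.07, adjusted p = 0.00676) and Notch1 (0.63, adjusted p = 0.00288), and Hey2, a Notch target, fell (-0.47, adjusted p = 0.00932). Of 14 venous and capillary genes 7 rose and 1 fell, the rises including the fatty acid carriers Cd36 (1.07, adjusted p = 0.00153) and Fabp4 (1.23, adjusted p = 0.00194), which macrophages and fat cells make too, and the fall being Angpt2 (-0.44, adjusted p = 0.0203).

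Genes of activated endothelium had a median of 0.74 in the same comparison, with 6 of 8 above 0. Of 8 measured 5 rose, among them the leukocyte ligand Icam1 (1.06, adjusted p = 0.000105), the selectins Sele (1.30, adjusted p = 0.00178) and Selp (0.83, adjusted p = 0.00476) and the vasoconstrictor endothelin gene Edn1 (1.21, adjusted p = 0.00146), while Vcam1, another leukocyte ligand that smooth muscle makes too, fell (-0.54, adjusted p = 0.0128). Of 10 flow, clotting and vasoactive genes 3 rose and 1 fell, where 16.5% of all genes rose and 15.1% fell. The rises were the protein C receptor Procr (0.77, adjusted p = 0.00338), the clotting inhibitor Tfpi (0.68, adjusted p = 0.00422) and Ednrb (1.11, adjusted p = 0.00283), and the fall was the prostacyclin synthase Ptgis (-0.71, adjusted p = 0.000231). Klf2, a flow-induced factor, passed neither there (0.37, adjusted p = 0.106) nor for RBX in diabetic mice (-0.56, adjusted p = 0.29), and its interaction term passed (-0.93, adjusted p = 0.018). With RBX in diabetic mice none of these 72 genes passed (limma, 9 at an unadjusted p under 0.05, where 9.18% of all genes were). Under RBX, diabetes raised 2 of the 72, Ptgis (0.60, adjusted p = 0.00503) and Tm4sf1 (0.41, adjusted p = 0.038), and lowered 3, Ets1 (-0.66, adjusted p = 0.00503), Acvrl1 (-0.61, adjusted p = 0.00503) and Palmd (-0.67, adjusted p = 0.00905). These counts are near the shares over all genes, of which 4.44% rose and 2.66% fell. The interaction term passed in 29 of the 72, 28 of them below 0, where 5.5% of all genes passed below 0 and 6.02% above 0.

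Markers of other cells were read on the same arrays. Of all genes 16.5% rose and 15.1% fell with RBX in non-diabetic mice, and the counts below stand beside these shares. With RBX in non-diabetic mice the platelet and megakaryocyte markers, of cells that also carry Vwf, Mmrn1 and Pecam1, rose in 5 of 5 measured of 7 listed (median 1.26), with a summed signal of 21668 to 39356 in non-diabetic RBX mice, against 10281 to 16140.1 in non-diabetic mice. Macrophage markers rose in 6 of 8 (median 0.75), their sums being 233523 to 343667 in non-diabetic RBX mice, against 163751 to 245673 in non-diabetic mice. Mesothelial markers rose in 3 of 4 measured of 7 listed (median 1.66), with sums of 5603 to 11736 in non-diabetic RBX mice, against 2350.4 to 3344 in non-diabetic mice. Brown adipocyte markers had a median of 1.32 with 1 of 7 past the threshold, and sums of 28355 to 131375 in non-diabetic RBX mice, against 22119.8 to 35829.9 in non-diabetic mice. White adipocyte markers rose in 2 of 5 measured of 8 listed (median 0.78), with sums of 12602 to 47779 in non-diabetic RBX mice, against 13534 to 21579 in non-diabetic mice. Lymphatic endothelial markers rose in 3 of 4 measured of 6 listed (median 0.67), with sums of 15165 to 23906 in non-diabetic RBX mice, against 8038 to 13086 in non-diabetic mice, and Prox1, which defines lymphatic endothelium, was below the filter. Smooth muscle markers fell in 5 of 8 and rose in 1 (median -0.96), with sums of 295228 to 458420.1 in non-diabetic RBX mice, against 421055 to 459646 in non-diabetic mice. Adventitial fibroblast markers rose in 3 of 8 (median 0.28), and of the cardiac muscle markers 1 of 3 measured of 7 listed fell (median -0.27). Erythroid markers rose in 1 of 2 measured of 7 listed, and none of 7 T and B lymphocyte markers was above the filter. The part of these cells in the endothelial values was not tested.

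With diabetes none of these marker lists had a gene past the threshold (limma, 21 of 54 measured marker genes at an unadjusted p under 0.05, where 15.2% of all genes were). The medians were 1.04 for erythroid, 0.44 for macrophage, 0.65 for lymphatic, 0.93 for mesothelial, 0.35 for brown adipocyte, 0.21 for adventitial fibroblast, -0.06 for white adipocyte, -0.28 for platelet, -0.30 for smooth muscle and -0.43 for cardiac muscle markers. At the same unadjusted p, 6 of 8 macrophage, 3 of 4 lymphatic and 3 of 4 mesothelial markers were above 0, where 8.13% of all genes were. Below 0 were 3 of 8 smooth muscle markers, where 784 of 11042 genes were. Of the 34 endothelial genes 21 were above 0 at this p, with a median of 0.47. The summed smooth muscle signal was 370333 to 448164 in diabetic mice, against 421055 to 459646 in non-diabetic mice. The platelet sum was 9652 to 13826 in diabetic mice, against 10281 to 16140.1 in non-diabetic mice. The brown adipocyte sum was 11729.7 to 65035 in diabetic mice, against 22119.8 to 35829.9 in non-diabetic mice. Diabetic mouse 4, with the lowest brown adipocyte sum of all 16 mice, had the second highest endothelial mean of its group. It was the highest of its group in 13 of the 34 genes and the lowest in 4. These 4 were Gpihbp1 at 931, Rbp7 at 554, Rgcc at 4030.4 and Mmrn1 at 317. The relation of single genes to the brown adipocyte sum was not tested.

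**Figure D4:**
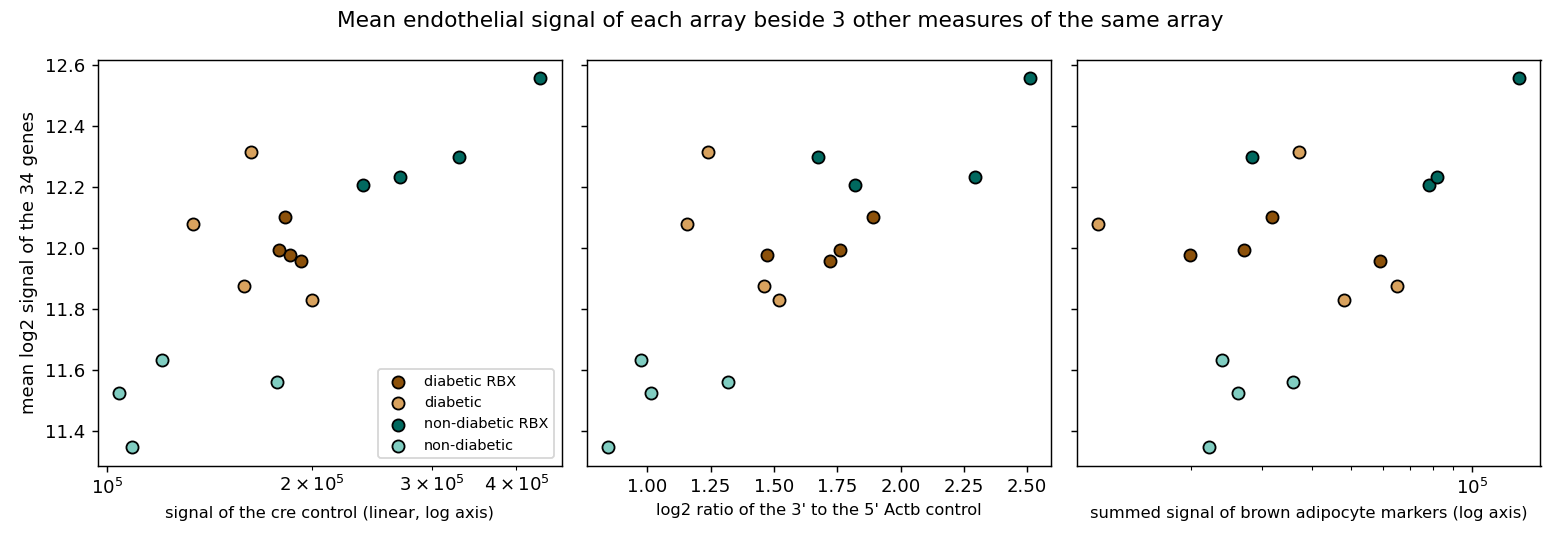
Mean log2 signal of the 34 genes (y axis) on each of the 16 arrays against the signal of the cre control (left, log axis), the Actb 3' over 5' ratio on the log2 scale (middle) and the summed signal of brown adipocyte markers (right, log axis), coloured by group. Non-diabetic RBX arrays have the highest cre signals, between 237689.7 and 433951, the 4 non-diabetic arrays lie lowest on the y axis, and diabetic mouse 3 lies at the height of the non-diabetic RBX arrays.

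Further probe sets of the same genes were read as well. Above the filter 10 of the genes had 19 further probe sets, fitted one by one. For diabetes and for RBX in non-diabetic mice 19 of 19 had the sign of the gene's brightest probe set, for diabetes under RBX 16, for RBX in diabetic mice 13 and for the interaction 18. None of those with the opposite sign had an unadjusted p under 0.05. Of the 6 further probe sets below the filter, 6 had the sign of the brightest probe set for diabetes and 1 for diabetes under RBX. For RBX in non-diabetic mice 4 did, for RBX in diabetic mice 4 and for the interaction 3. Among those with the opposite sign, 1 of Sox7 had an unadjusted p under 0.05 with RBX in non-diabetic mice (-1.89, unadjusted p = 0.0377). The same held for 1 of Mmrn1 for diabetes under RBX (-2.95, unadjusted p = 0.031).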

How the data were processed

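Total RNA of whole aorta was extracted with Trizol and biotinylated cRNA made from 2 ug of it, per the labels' protocols. Per the submitters' processing notes the deposited intensity values are MAS5 signals; no version is given there. The values were linear, from 0.7 upwards, for 45101 probe sets per array, and each array had the same mean of 1500.01 after leaving out 2% at each end. Such scaling fixes the average of an array and not its spread. Gene names came from GEO's platform annotation. The log2 of each value was used as it stood, and named probe sets with a mean log2 above the median of all (a linear signal of 381.5) were kept. The brightest probe set stood for each gene, which gave 11042 genes.

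Groups were taken from the titles. Limma 3.58.1 in R 4.3.3 was fitted with a mean per group, 12 residual degrees of freedom and an intensity trend. The 5 comparisons were both diabetes effects, both RBX effects and their interaction, with two-sided p-values adjusted by Benjamini-Hochberg. The fit was tested on simulated data, with independent noise for each gene and shifts added to some genes in the diabetic group only. Those data held no difference across a whole array, so they do not bear on the cre, Actb or scaling differences. The titles call the replicates biological. The 34 genes and all lists were chosen with earlier results of these data known. Of the 34, every array's value is given for those past the threshold in any comparison and for the 2 of smallest p for diabetes in each class, and Erg and Mmrn1 were added after their values were seen; of the other lists, up to 6 of smallest p are named where they passed, and Calcrl and Klf2 were added after their values were seen. Precision is limited by the number of arrays.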

Additional observations from a re-analysis of the deposited data

Results flagged for a closer look

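In 11 of 136 sets of 4 arrays (34 genes in 4 groups) 1 mouse lay far from the other 3, by Dixon's criterion at 95%, which flags about 1 set in 20 by chance. Non-diabetic RBX mouse 4 was high for Bcl6b at 1303, against 729.7 to 793.8 in the other 3 mice, for Vwf at 42134, against 24327 to 26157, and for Mmrn2 at 21066, against 12437 to 13254. On the same array the cre signal was 433951, the highest of the 16. Without this mouse 26 of the 34 genes passed for RBX in non-diabetic mice, Erg as a fall, against 29 with it. How many of all genes passed without it is not given here. In the same group mouse 2 was low for Nos3 at 6177, against 8570 to 8987 in the others, and mouse 1 low for Aqp1 at 23159, against 32010 to 33063.

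Among diabetic RBX mice, mouse 4 was low for Cd93 at 25307 (27687 to 28129 in the others), mouse 2 low for Eng at 5112 (7440 to 7771) and mouse 1 high for Vwf at 26223 (23081 to 23531). Diabetic mouse 4 was low for Gpihbp1 at 931.3 (2522 to 2696). Non-diabetic mouse 4 was high for Icam2 at 4408 (2734 to 2963), and non-diabetic mouse 3 low for Sox7 at 943.8 (1350.3 to 1396).

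The effect of RBX differed between diabetic and non-diabetic mice by the interaction term in 18 genes. On the log2 scale the difference was -1.29 for Cdh5, -0.60 for Esam, -1.44 for Emcn, -1.02 for Ecscr, -1.02 for Cd93, -0.99 for Flt1, -0.61 for Tek and -1.16 for Eng. It was -0.97 for Ldb2, -1.09 for Sox7, -0.84 for Sox18, -1.62 for Bcl6b, -1.08 for Egfl7, -0.70 for Mmrn2, -0.95 for Nos3, -1.46 for Gpihbp1, -2.31 for Rbp7 and -1.76 for Rgcc.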

How the results depend on the processing

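For diabetes without RBX the count of 4 genes was 1 without the intensity trend, 20 with array weights, 9 with the replicate block, 0 with the cre covariate, 1 with the Actb ratio covariate, 2 with arrays centred on their median (an alternative added after seeing the data), and 0 to 9 with 1 array left out. For diabetes under RBX the count of 1 was 2 with the mean over probe sets, 3 with only the groups compared, 0 with either covariate and 0 to 2 with 1 array left out. For RBX in non-diabetic mice the count of 29 was 0 with the cre covariate, 2 with the Actb ratio and 19 (18 rises and Erg as a fall) with median centring, a scaling that moved the median of all genes from 0.03 to -0.26. With 1 array left out it was 22 to 29. For the interaction the count of 18 was 10 without the trend, 0 with the cre covariate, 3 with the Actb ratio, 9 with median centring and 9 to 20 with 1 array left out. For RBX in diabetic mice it was 0 in every alternative run. The share of all genes called in each of these fits is not given here. A change in the count of the 34 is thus not told apart from a change in the count of all genes. The replicate block changed no other count by over 1.5 times. Same-numbered arrays share only a number: their deviations from the group means correlated by -0.14 to 0.18 and 3 of 16 arrays correlated best with their own number. Among genes that had passed, signs reversed for Flt1 with the cre covariate (-0.14, adjusted p = 0.914) and for Rgcc with the Actb ratio (-0.31, adjusted p = 0.713), both for RBX in non-diabetic mice; the cause was not tested. Counting genes that had not passed, the sign changed in 5 of 743 combinations of gene and alternative for RBX in non-diabetic mice (Mmrn1 in 2, to as low as -0.92, and Pecam1 in 1, to -0.09), 15 for diabetes, 17 for diabetes under RBX, 52 for RBX in diabetic mice and 12 of 981 for the interaction. Without these covariates 18 of the 29 calls and 7 of the 18 interaction calls were made in every alternative run. The median over the 34 genes moved by more than the spread between mice only under median centring, to 0.49 for RBX in non-diabetic mice and -0.59 for the interaction. Probe sets near background limit what can be said of the 6 further probe sets below the filter.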
